A study of Mus musculus with 4 samples.

Results

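Polycomb genes encode the 2 chromatin complexes, PRC1 and PRC2, that keep genes silent, and the 9 genes described here are their central subunits together with 2 genes of opposing machinery. The genes were chosen by symbol and by no rule on their measured values, but earlier results of these data were known. They are Ezh1, Ezh2, Eed, Suz12 and Jarid2 of PRC2, Bmi1 and Rnf2 of PRC1, the H3K27 demethylase gene Kdm6b, and Men1. All 9 were found among the 50600 genes of the deposited tables. Men1 is no Polycomb gene; it encodes menin, a cofactor of MLL methyltransferases that mark active promoters.

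PRC2 places methyl groups on H3K27. EZH2 or its paralog EZH1 is the catalytic subunit, SUZ12 is the scaffold, EED binds the finished mark, and JARID2 is an accessory subunit that helps recruit the complex. PRC1 attaches ubiquitin to histone H2A through the ligase RNF2, also called RING1B, which pairs with BMI1, also called PCGF4. KDM6B, also called JMJD3, removes H3K27 methylation. In CD4 T cells EZH2 is known to restrain the genes of rival helper lineages, and KDM6B is known to act in helper T cell differentiation.

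Th17 cells, a class of helper T cell named for the interleukin 17 that it secretes, were the source of the RNA, as primary cells from mice of strain C57BL/6NJ. The series holds 4 libraries in 1 group, numbered 1 to 4, with no genetic change, no treated arm and no control named in the labels, and each file header carries a time of 72 hr. The cells were differentiated from CD4 T cells by a linked protocol. The 4 biosamples carry 1 donor identifier, and neither sex nor age is given. Whether the 4 came from separate animals is not stated, so p-values measure the spread between these samples. Counts of the Y-linked gene Uty, given with the KDM6 genes, were 1497 and 1449 in replicates 2 and 1 and 5 and 6 in replicates 3 and 4, so the 4 did not all come from the same animal; within either pair the spread may be technical. Each comparison of 1 library with 3 crosses this division. With 1 group, the data bear on how high each gene stood and on how far single libraries departed from the rest.

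Counts per library totalled 33123029 to 37746767 fragments. The 5 CD4 T cell markers (Cd4, Cd3e, Cd3d, Trac and Trbc2) and the 6 Th17 markers tested (Il17a, Il17f, Il22, Il23r, Ccr6 and Rora) all lay above 1 TPM. Of markers of other cells, 2 of 7 for B cells (Ighm and Ebf1), 2 of 5 for myeloid cells (Adgre1 and Cd14), 1 of 3 for natural killer cells (Gzma), 1 of 2 for CD8 T cells and 1 of 6 for epithelial and stromal cells also lay above 1 TPM, while Lyz2 of the myeloid, Ncr1 of the natural killer and Krt8 of the epithelial list had no count in any library. Exons of Itgam, in the myeloid list, share 68.7% of their bases with Gm49368 on the same strand, so its count is uncertain. TPM is a count per gene length, on a scale on which every library has the same sum. Replicate 2 stood apart: by edgeR's quasi-likelihood test 3907 of 17337 genes tested differed there from the other 3 libraries after Benjamini-Hochberg adjustment, against 0 genes for replicate 1, 3 or 4. At an unadjusted p under 0.05 those libraries had 166, 257 and 128 genes, and DESeq2 called 2, 15 and 3. Summed over the 6 Th17 markers, replicate 2 had 1355 TPM and the other 3 libraries 5370 to 6141 TPM, with 5 of the 6 lower in replicate 2 by edgeR and 6 called by DESeq2. Results are therefore given with replicate 2 set apart.

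Stretches upstream of a RefSeq start of 5 members are shown. Of these members 4 (Suz12, Jarid2, Rnf2 and Ezh1) changed in replicate 2, and Ezh2 is the paralog that did not pass the test. They are RefSeq sequences on GRCm38.p6, the assembly called mm10 in the labels, read 5′ to 3′ on the gene's strand. Capitals mark a CCAAT box (CCAAT or ATTGG, the element bound by NF-Y) or a GC box (GGGCGG or CCGCCC, bound by SP1 family factors).
Ezh2, chr6:47595059-47595183, minus strand: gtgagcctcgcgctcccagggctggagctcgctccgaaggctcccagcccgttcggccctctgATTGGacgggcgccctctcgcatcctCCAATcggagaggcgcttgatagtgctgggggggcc
Ezh1, chr11:101226464-101226713, minus strand: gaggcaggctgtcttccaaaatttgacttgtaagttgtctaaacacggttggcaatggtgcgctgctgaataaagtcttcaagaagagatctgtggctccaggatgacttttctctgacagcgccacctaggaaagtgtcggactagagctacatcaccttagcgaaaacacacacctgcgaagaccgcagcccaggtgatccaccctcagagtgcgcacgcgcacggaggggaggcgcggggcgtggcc
Suz12, chr11:79992856-79993105, plus strand: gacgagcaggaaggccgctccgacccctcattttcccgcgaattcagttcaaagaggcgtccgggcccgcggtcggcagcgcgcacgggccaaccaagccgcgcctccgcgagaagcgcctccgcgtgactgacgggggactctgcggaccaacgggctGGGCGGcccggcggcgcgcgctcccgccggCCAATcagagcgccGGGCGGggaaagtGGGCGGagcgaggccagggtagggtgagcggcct
Jarid2, chr13:44730524-44730773, plus strand: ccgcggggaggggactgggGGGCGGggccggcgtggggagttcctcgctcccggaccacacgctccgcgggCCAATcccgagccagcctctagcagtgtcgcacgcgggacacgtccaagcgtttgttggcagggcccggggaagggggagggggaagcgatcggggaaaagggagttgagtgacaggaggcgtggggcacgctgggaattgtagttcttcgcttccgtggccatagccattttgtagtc
Rnf2, chr1:151500992-151501241, minus strand: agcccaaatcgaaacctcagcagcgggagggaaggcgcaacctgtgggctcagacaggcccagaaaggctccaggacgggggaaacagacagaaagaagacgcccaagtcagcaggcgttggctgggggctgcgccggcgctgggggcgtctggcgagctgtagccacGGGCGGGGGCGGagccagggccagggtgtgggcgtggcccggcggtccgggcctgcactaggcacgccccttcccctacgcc

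Windows of 250 bases before the RefSeq start were searched on both strands for 5 motifs, and 8 of the 9 members had a window. Ezh2 had 3 CCAAT boxes, of which 2 lie in the stretch shown; the rest of its window overlaps exons of the gene in the deposited annotation. Suz12 had 1 CCAAT box and 3 GC boxes. Jarid2 had 1 of each in the window before the more upstream of its 2 starts, which is the one shown. The stretches shown for Jarid2 and Ezh2 lie within the spans of these genes in the deposited annotation, outside annotated exons. Rnf2 had 2 adjoining GC boxes and Ezh1 had none of the 5 motifs. Of 32851 promoter windows, 33.8% held a CCAAT box and 32.7% a GC box. The other motifs were TTTNGCGC (the E2F core, in 1.13% of windows), CCGGAAG (ETS, 6.91%) and TGACGTCA (the cyclic AMP response element, 1.55%), and none of these was found in a member's window. A match is a description of letters, and bears on no binding.

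All 9 genes were expressed, from the scaffold gene Suz12 at the top to Ezh1 at the bottom. By an intercept-only edgeR quasi-likelihood fit each lay above 1 TPM, as did 70.6% of all genes tested (16.4% lay below it), so that most expressed genes gave the same call. The order of levels was Suz12, Eed, Men1, Ezh2, Rnf2, Bmi1, Kdm6b, Jarid2 and Ezh1 in replicates 1, 3 and 4, and replicate 2 differed from it by an exchange of Kdm6b and Jarid2. Among the 8 pairs of neighbours in this order, the ranges over libraries overlapped for Kdm6b and Jarid2 alone. Kdm6b exceeded Jarid2 in 3 of 4 libraries (mean log2 difference 0.03 ± 0.15 SD, n = 4, exact p = 0.875, two-sided sign-flip). The other 7 neighbours kept their order in 4 of 4 libraries, each at the smallest exact p that 4 libraries allow, 2 of 16 sign assignments (adjusted over the 8 pairs, 0.143). The pairs were taken from the order in these same libraries, so these tests are no separate support for it. The order also depends on gene length. With the longest transcript of each gene in place of its summed exons, Ezh2 came before Men1 and Jarid2 before Kdm6b. In bulk RNA, fewer cells of a type and less RNA per cell cannot be told apart.

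**Figure D1:**
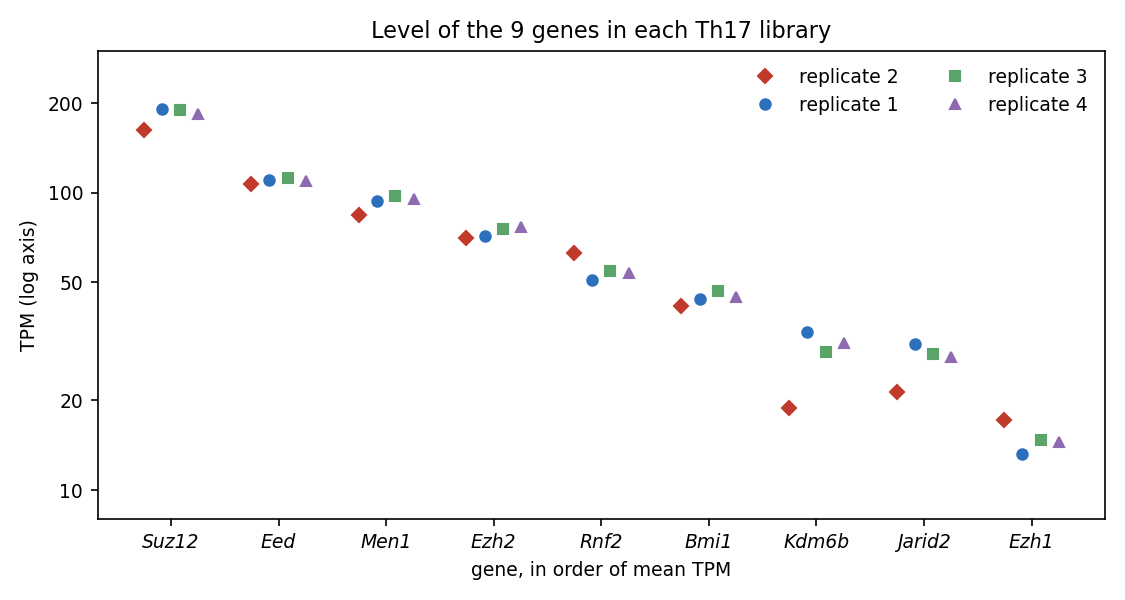
Each point is the TPM of 1 gene (log axis) in 1 of the 4 Th17 libraries, with genes in order of mean TPM. Replicate 2 (diamonds) lies above the other libraries for Rnf2 and Ezh1 and below them for the rest, of which Suz12, Jarid2 and Kdm6b passed edgeR's test. The 4 points of Eed lie between 107 and 112 TPM.

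Of the PRC2 genes among the 9, Suz12 had the highest TPM, and Eed was the steadiest between libraries of all 9. Suz12 (ENSMUSG00000017548.15, mm10 chromosome 11, bases 79993106 to 80034123, protein-coding) had 163 TPM in replicate 2, against 191, 189 and 184 TPM in replicates 1, 3 and 4. Replicate 2 was thus the lowest and lay outside the range of the others. Eed (ENSMUSG00000030619.9, chromosome 7, bases 89954654 to 89980983) had 107 TPM in replicate 2, and 110.3, 111.7 and 109.8 TPM in replicates 1, 3 and 4, a coefficient of variation of 1.76%. Within libraries Suz12 stood above Eed by 0.72 ± 0.08 on the log2(TPM + 0.1) scale (SD, n = 4, exact p = 0.13, two-sided sign-flip, higher in 4 of 4). That gap rests on the gene length used. With the longest basic transcript of each gene in GENCODE vM21 as length, 4373 bases for Suz12 and 2067 for Eed, it was 0.01 ± 0.08 (exact p = 0.75, two-sided sign-flip), with Suz12 at 134 and Eed at 144 TPM in replicate 2.

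Of the catalytic pair, Ezh2 greatly outweighed Ezh1. Ezh2 (ENSMUSG00000029687.16, chromosome 6, bases 47530139 to 47595341) had 70.5 TPM in replicate 2 and 71.3, 75.6 and 76.9 TPM in replicates 1, 3 and 4. Ezh1 (ENSMUSG00000006920.14, chromosome 11, bases 101191115 to 101226463) had 17.2 TPM in replicate 2, against 13.3, 14.7 and 14.5 TPM in the others. Replicates 2 and 1, in which Ezh2 was nearly equal, thus held the highest and the lowest level of Ezh1. Ezh2 is known as the form of dividing cells and Ezh1 as the form that persists in resting ones. Within libraries Ezh2 exceeded Ezh1 by 2.30 ± 0.18 on the log2(TPM + 0.1) scale (SD, n = 4, exact p = 0.13, two-sided sign-flip, higher in 4 of 4). Ezh2 made up 80.4% of the summed TPM of both in replicate 2 and 84.3%, 83.7% and 84.1% in replicates 1, 3 and 4. With the longest transcript as length the share was 84.7% in replicate 2 and 87.9%, 87.5% and 87.7% in the others, with the same library lowest.

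Jarid2 (ENSMUSG00000038518.15, chromosome 13, bases 44729474 to 44921643), the accessory subunit, was well below Suz12, Eed and Ezh2 and above Ezh1. It had 21.3 TPM in replicate 2, against 31.0, 28.7 and 27.9 TPM in replicates 1, 3 and 4. Its mean difference from Eed was −2.02 ± 0.21 on the log2(TPM + 0.1) scale (SD, n = 4, exact p = 0.13, two-sided sign-flip, lower in 4 of 4).

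Both PRC1 genes lay in the middle of the order. Rnf2 (ENSMUSG00000026484.13, chromosome 1, bases 151458004 to 151500955), the ubiquitin ligase gene, had 62.9 TPM in replicate 2, against 50.9, 54.4 and 53.5 TPM in replicates 1, 3 and 4. Bmi1 (ENSMUSG00000026739.13, chromosome 2, bases 18677018 to 18686629), its partner, had 41.5 TPM in replicate 2 and 43.9, 46.6 and 44.5 TPM in the others. Replicate 2 was thus the highest library for Rnf2 and the lowest for Bmi1. The difference of Rnf2 from Bmi1 was 0.60 in replicate 2 and 0.21, 0.22 and 0.27 in replicates 1, 3 and 4 on the log2(TPM + 0.1) scale (mean 0.33 ± 0.18 SD, n = 4, exact p = 0.13, two-sided sign-flip).

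Kdm6b (ENSMUSG00000018476.7, chromosome 11, bases 69398508 to 69413675), the demethylase gene, varied most of the 9, with a coefficient of variation of 23.1%. It had 18.9 TPM in replicate 2, against 33.9, 29.0 and 31.1 TPM in replicates 1, 3 and 4. Ezh2, writer of the mark that KDM6B removes, stood above Kdm6b by 1.89 in replicate 2 and by 1.07, 1.38 and 1.30 in the others on the log2(TPM + 0.1) scale (mean 1.41 ± 0.35 SD, n = 4, exact p = 0.13, two-sided sign-flip). The size of this gap depends on the length used: with the longest transcript as length its mean was 2.60 ± 0.35 SD. Men1 (ENSMUSG00000024947.16, chromosome 19, bases 6334979 to 6340891) had 84.0 TPM in replicate 2, and 94.0, 97.4 and 95.2 TPM in replicates 1, 3 and 4. All 5 pair differences given here stand at the smallest exact p that 4 libraries allow, also after adjustment over the 5.

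Set against the other 3 libraries, replicate 2 had lower Kdm6b, Jarid2 and Suz12 and higher Rnf2 and Ezh1, while Eed, Ezh2, Bmi1 and Men1 did not pass the test. That is 5 of 9 genes, beside 22.5% of all genes tested and 31.1% of genes with a mean of at least 5 TPM. Kdm6b fell by 0.67 ± 0.08 on the log2 scale (SE; edgeR, adjusted p = 4.61e-06), and its TPM was 0.604 of the mean of the other 3. Jarid2 fell by 0.39 ± 0.06 (adjusted p = 9.34e-05 by the same test) and Suz12 by 0.15 ± 0.05 (adjusted p = 0.0335). The 3 genes that were lower thus comprise an eraser of H3K27 methylation and 2 subunits of its writer. In the other direction, Ezh1 rose by 0.34 ± 0.09 (edgeR adjusted p = 0.00692) and Rnf2 by 0.31 ± 0.06 (edgeR adjusted p = 0.000699). Of all genes tested, 11.7% were higher and 10.9% lower. All 5 calls also held with DESeq2.

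Men1 had a log2 change of −0.13 ± 0.05 (edgeR adjusted p = 0.0681), Bmi1 −0.05 ± 0.07, Ezh2 −0.02 ± 0.05 and Eed 0.01 ± 0.05, none of which passed. Eed's value is slightly above 0 here and its TPM was slightly lower in replicate 2. The fit scales libraries by TMM, on which log2 changes in replicate 2 are shifted from those in TPM by a median of −0.06 (TPM minus TMM). None of the 9 passed in replicate 1, 3 or 4 by edgeR, at an unadjusted p under 0.05, or by DESeq2. These tests compare 1 library with 3, not conditions, and take the lone library to have the same spread as the rest; replicate 2 is among the 3 when another is tested.

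**Figure D2:**
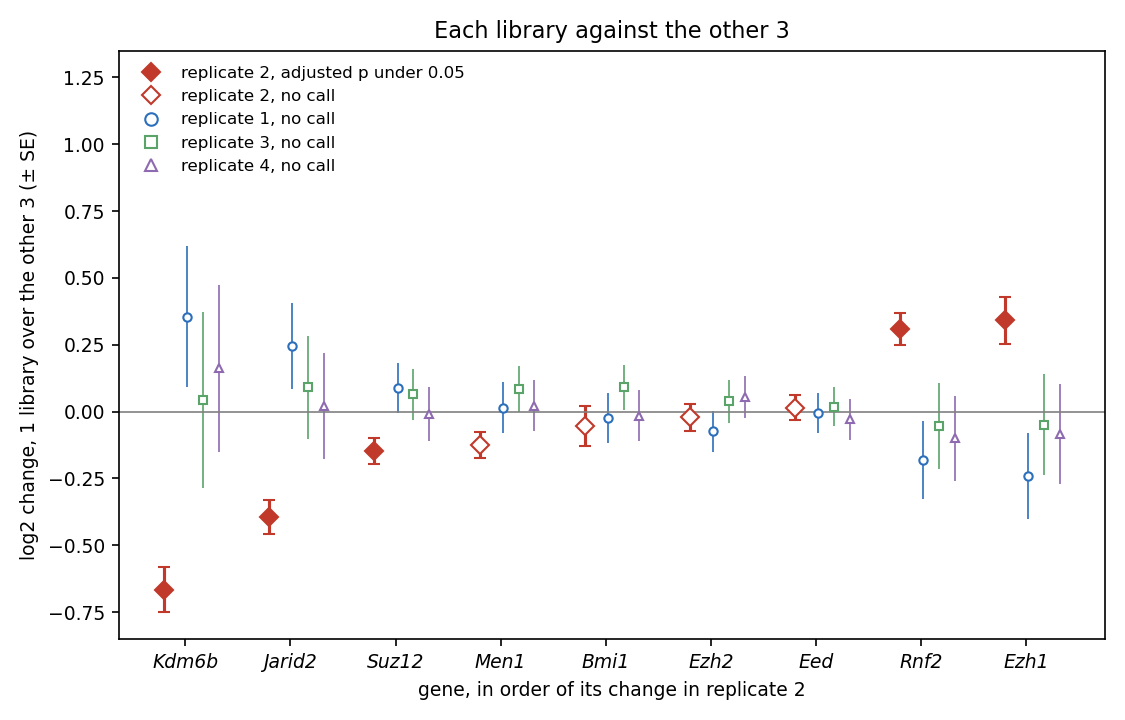
Points give the log2 change of each gene in 1 library over the other 3, with bars of ± 1 SE from edgeR; filled diamonds passed the test at adjusted p under 0.05 and open symbols did not. Kdm6b, Jarid2 and Suz12 lie below 0 and Rnf2 and Ezh1 above it in replicate 2. The open symbols of the other replicates have wider SEs for Kdm6b, Jarid2, Rnf2 and Ezh1 than for the rest, Suz12 included.

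A test of each gene's spread over the 4 libraries against that of genes of like abundance found no member among 6 genes called (0.0346% of those tested; F test on edgeR quasi-dispersions, Benjamini-Hochberg adjusted). Kdm6b had the largest ratio of the 9, 16.3 times the trend (edgeR, adjusted p = 0.558), followed by Jarid2 at 7.02 and Rnf2 at 4.15. At an unadjusted p under 0.05, 1 member passed (Kdm6b) along with 1068 genes in all. The call of Kdm6b depended on the filter: with no filter on counts its ratio was 14.6 with an adjusted p of 0.0356, and without replicate 2 it was 4.47 (edgeR, adjusted p = 0.769).

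The other KDM6 genes followed a different division of the libraries. Kdm6a, on chromosome X, encodes the broadly expressed H3K27 demethylase UTX. Uty is its Y-linked paralog, with little demethylase activity. Kdm6a had 25.7 TPM in replicate 2 and 26.0 TPM in replicate 1, and 49.7 and 50.6 TPM in replicates 3 and 4. Uty had 13.4 and 14.9 TPM in replicates 2 and 1, from 1497 and 1449 counts, and 5 and 6 counts in replicates 3 and 4. Neither gene passed in the comparison of replicate 2 (edgeR adjusted p = 0.603 for Kdm6a and 0.816 for Uty; 0 of the 2 at an unadjusted p under 0.05 or by DESeq2). Replicate 1 is among the libraries set against replicate 2 there, so that test could not show this division. The sum of Kdm6a and Uty was 39.1 TPM in replicate 2 and 40.9, 49.8 and 50.7 TPM in replicates 1, 3 and 4. Replicates 2 and 1 thus resemble each other in both genes, whereas for Kdm6b replicate 1 was the highest library. With Kdm6b added, the 3 genes summed to 58.0 TPM in replicate 2 and 74.8, 78.8 and 81.8 TPM in the others.

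**Figure D3:**
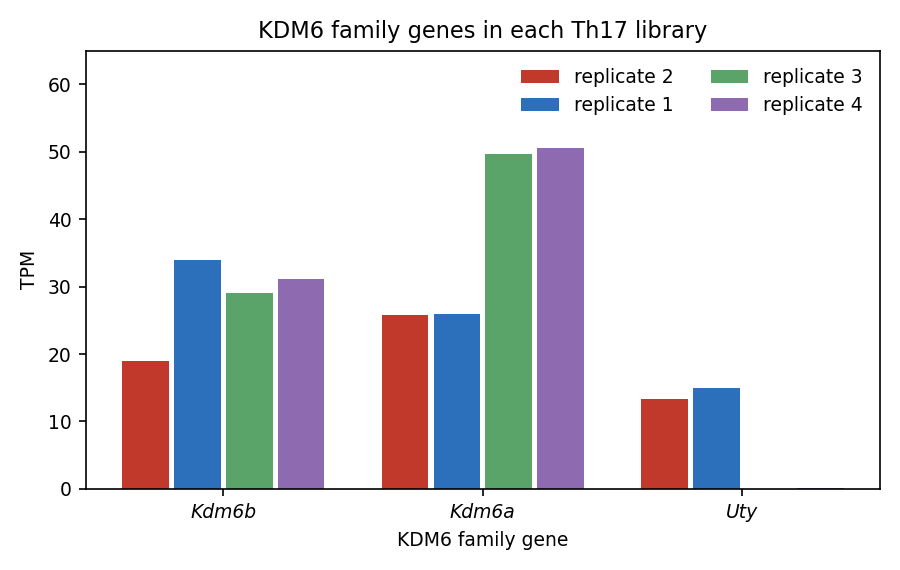
Bars give the TPM of the 3 KDM6 family genes in each Th17 library, from 0. Replicate 2 has the lowest bar for Kdm6b at 18.9 TPM, while Kdm6a and Uty divide replicates 2 and 1 from replicates 3 and 4, where Uty rests on 5 and 6 counts and its bars are not visible.

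Of 9 further PRC2 genes listed, 8 matched a gene identifier (Ezhip did not), and all of those 8 lay above 1 TPM. Rbbp7 and Rbbp4, histone-binding chaperones shared with other complexes, had 470 ± 17.1 and 126 ± 3.28 TPM (SD, n = 4), and Aebp2, an accessory factor found with JARID2, 131 ± 3.78 TPM. In replicate 2 there were 1 higher and 1 lower gene, a share near the 22.5% of all genes tested. Epop, a subunit that links PRC2 to elongin, had 126 TPM in replicate 2, against 120.0, 106 and 111 TPM in replicates 1, 3 and 4 (log2 change 0.23 ± 0.06 SE, edgeR adjusted p = 0.0104). Phf19, a Polycomb-like subunit that brings PRC2 to chromatin, had 12.8 TPM in replicate 2, against 18.8, 20.2 and 20.05 TPM (log2 change −0.56 ± 0.10, edgeR adjusted p = 0.000199). Aebp2 had a log2 change of 0.11 ± 0.05 with no call.

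Of 29 further PRC1 genes tested, 28 lay above 1 TPM and 12 changed in replicate 2 (41.4%, beside 22.5% of all genes and 31.1% of those of at least 5 TPM), 10 of them higher and 2 lower. The PCGF genes, paralogs of Bmi1 that define the forms of PRC1, were led by Pcgf5 at 173 ± 10.6, Pcgf6 at 35.3 ± 1.30 and Pcgf3 at 24.0 ± 2.18 TPM. Bmi1 thus lay second to Pcgf5 per length. Pcgf3 rose in replicate 2 by 0.31 ± 0.06 (edgeR adjusted p = 0.000424), and Pcgf5 rose too (0.20 ± 0.06, adjusted p = 0.0133 by edgeR, with no call by DESeq2). Ring1, the paralog of Rnf2, which was named here for that reason after its values were seen, had 21.5 TPM in replicate 2 and 23.0, 20.4 and 20.5 TPM in replicates 1, 3 and 4, with no call.

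Canonical PRC1 is the form that reads H3K27 methylation through a CBX protein. Of its 11 CBX, PHC and SCM genes tested, 4 rose and 1 fell in replicate 2 by edgeR (DESeq2 called 4). Beside this, 22.5% of all genes were called and 31.1% of those of at least 5 TPM. The median log2 change was 0.03, beside −0.01 for all genes. Phc2 led at 49.1 ± 1.62 TPM, ahead of Cbx6 at 44.9 ± 4.78 and Cbx7, the CBX protein of haematopoietic self-renewal, at 31.2 ± 3.33 TPM. Exons of Cbx6 share 8.95% of their bases with Npcd on the same strand, so its count is uncertain. Scml4, a Scm-like gene, had 8.29 TPM in replicate 2, against 4.19, 4.50 and 3.97 TPM (log2 change 1.04 ± 0.12, edgeR adjusted p = 1.02e-06). Cbx2 fell, by 0.44 ± 0.12 (edgeR adjusted p = 0.0107).

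Variant PRC1 carries RYBP or YAF2 in place of a CBX protein. Here 11 of 12 genes lay above 1 TPM, led by Wdr5 at 115 ± 2.28, Bcor at 115 ± 3.74 and Fbrs at 91.0 ± 6.50 TPM; Auts2 lay below it. In replicate 2, 4 were higher and 1 lower, beside 22.5% of all genes called and 31.1% of those of at least 5 TPM. Bcorl1, a corepressor paralog of Bcor, had the largest rise, 0.53 ± 0.08 (edgeR adjusted p = 4.91e-05). Rybp was the gene that fell, with 9.05 TPM in replicate 2, against 13.0, 14.9 and 16.2 TPM in replicates 1, 3 and 4 (log2 change −0.64 ± 0.12, edgeR adjusted p = 0.000566). PR-DUB, which removes the ubiquitin that PRC1 adds, had 7 of 7 tested genes above 1 TPM, led by Foxk2 at 102 ± 2.92, Bap1, its catalytic subunit, at 86.8 ± 1.10 and Asxl1 at 71.5 ± 3.66 TPM. Foxk1 rose by 0.29 ± 0.05 and Asxl2 fell by 0.30 ± 0.05 in replicate 2 (edgeR adjusted p = 0.000233 and 0.000174).

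Menin works with MLL1 and MLL2, the products of Kmt2a and Kmt2b. All 8 of its partner genes lay above 1 TPM, led by Dpy30 at 241 ± 14.0, Hcfc1 at 183 ± 12.0 and Rbbp5 at 69.8 ± 1.57 TPM, common subunits or cofactors of these complexes. In replicate 2, 2 were higher and 4 lower, beside 22.5% of all genes called and 31.1% of those of at least 5 TPM; with no filter on counts 5 of the 8 were called in place of 6. Kmt2a rose by 0.24 ± 0.06 (edgeR adjusted p = 0.00556) and Hcfc2 fell by 0.42 ± 0.09 (edgeR adjusted p = 0.00108). In the MLL3 and MLL4 complexes, which carry UTX, Paxip1 had 32.8 ± 3.15, Ncoa6 32.5 ± 1.26 and Kmt2d 25.0 ± 2.68 TPM, and 4 of 4 tested genes lay above 1 TPM. Kmt2d, the MLL4 gene, rose by 0.34 ± 0.05 and Paxip1 fell by 0.23 ± 0.05 (edgeR adjusted p = 3.39e-05 and 0.00103). Here 2 genes were higher and 1 lower by edgeR, and 2 were called by DESeq2. Over both lists, 4 of 12 tested genes were higher and 5 lower by edgeR (75%, beside the same 31.1%).

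**Figure D4:**
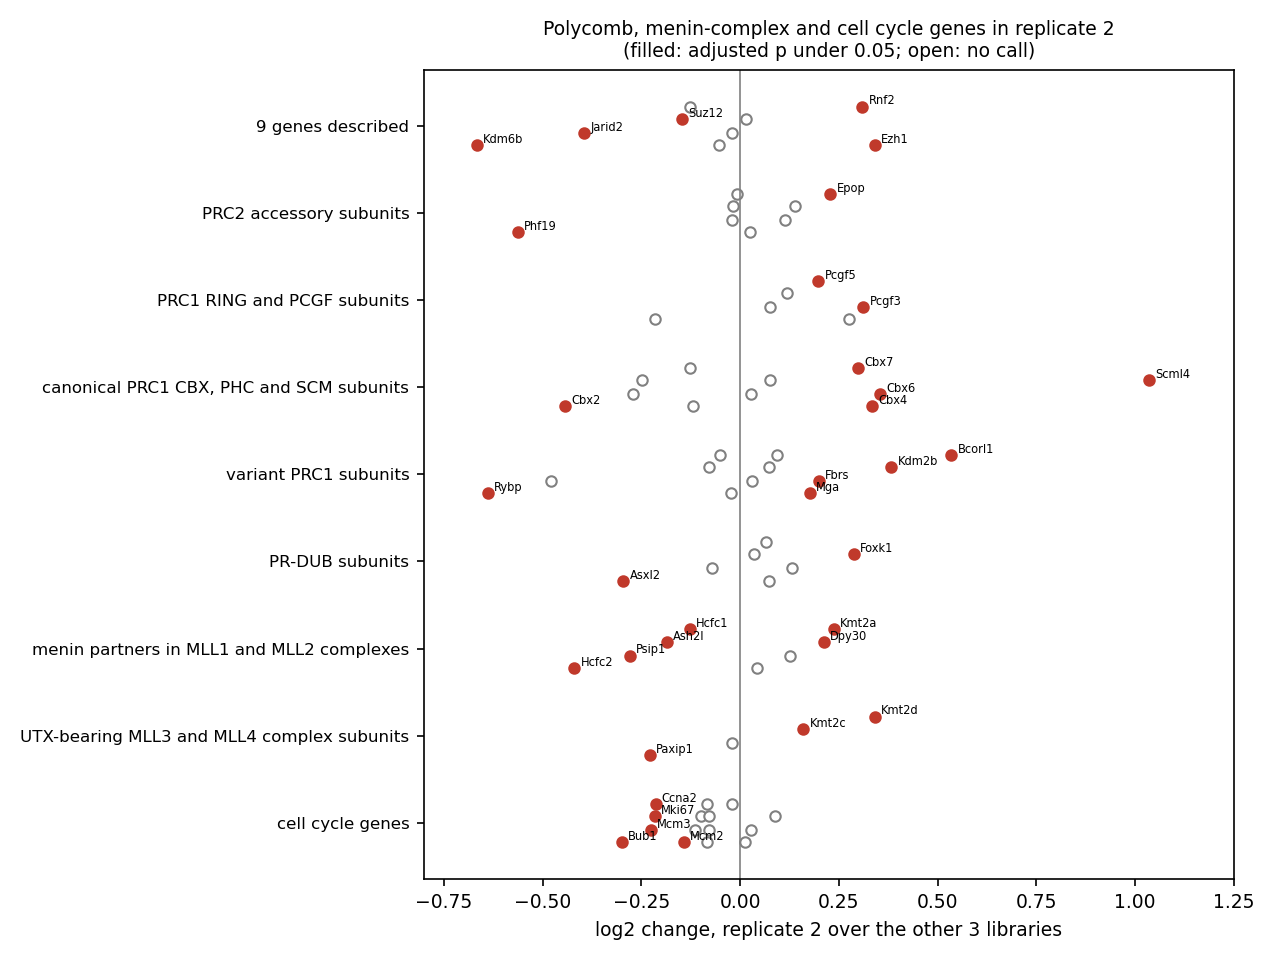
Each point is the log2 change of 1 gene in replicate 2 over the other 3 libraries, for the 9 genes described and for 8 lists of related genes; filled points passed edgeR's test at adjusted p under 0.05 and carry their symbol. Called genes lie on both sides of 0 in most lists, whereas the 5 called cell cycle genes all lie below it.

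The Hox cluster genes, textbook Polycomb targets, were mostly silent. Of 39 Hox cluster genes, 12 had no count in any library and 15 had enough counts to be tested, of which 12 lay below 1 TPM and Hoxb4 alone above it. Hoxb4, a homeobox gene of blood progenitors, had 4.63 TPM in replicate 2 and 3.50, 3.82 and 3.41 TPM in replicates 1, 3 and 4. Hoxb9 stood at 0.578 ± 0.174 TPM (SD, n = 4). In replicate 2, 0 of the 15 were called by edgeR, 0 at an unadjusted p under 0.05 and 0 by DESeq2. Cdkn2a, the cell cycle inhibitor gene that BMI1 is known to repress, had 3 counts in replicate 2 and 9, 9 and 10 counts in replicates 1, 3 and 4, and its level of 0.623 ± 0.267 TPM was not told apart from 1 TPM. Of 8 cell cycle inhibitor and T cell loci listed as bound by Polycomb or menin, 6 lay above 1 TPM. They were led by Bach2, which menin is known to maintain in T cells, at 131 ± 6.83 TPM, Cdkn1b, another menin target, at 40.2 ± 6.27 TPM, and Tbx21. In replicate 2, 1 of the 8 was higher and 2 were lower by edgeR, beside 22.5% of all genes called and 31.1% of those of at least 5 TPM. Cdkn1b fell in replicate 2, with 31.1 TPM there against 44.7, 41.0 and 44.1 TPM in the others (log2 change −0.41 ± 0.08, edgeR adjusted p = 0.000364). Bach2 had no call, and the largest fall and rise of these loci were those of Tbx21 (−1.51 ± 0.12, edgeR adjusted p = 4.53e-09) and Eomes (3.10 ± 0.11, edgeR adjusted p = 2.18e-13).

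Some division and resting state genes also differed in replicate 2, and their part in the results was not tested. Of 15 cell cycle genes 0 were higher, 5 were lower and 10 did not pass (DESeq2 called 4). Of all genes of at least 5 TPM, 16.6% were higher and 14.5% lower. The cell cycle genes had a sum of 2687 TPM in replicate 2 and 2927 to 3027 TPM in the other libraries. The DNA synthesis genes Rrm2, Pcna and Mcm3 led with 493 ± 8.46, 381 ± 23.8 and 341 ± 32.9 TPM (SD, n = 4). The largest fall was that of the spindle checkpoint gene Bub1, by 0.30 ± 0.06 (edgeR adjusted p = 0.000424). Of 9 resting T cell genes 5 were higher and 1 lower, with a sum of 2005 TPM in replicate 2 and 1254 to 1256 TPM in the others. Tcf7, a transcription factor gene of naive and memory cells, had the highest mean of that list at 675 ± 208 TPM, before Ccr7 at 398 ± 155 and Satb1 at 136 ± 11.8 TPM. The homing receptor gene Ccr7 gave the largest rise there (1.03 ± 0.05, edgeR adjusted p = 8.63e-13). The CD4 T cell markers summed to 2422 TPM in replicate 2 and 2585 to 2703 TPM in the others, with 0 of 5 called by edgeR, at an unadjusted p under 0.05 or by DESeq2. B cell markers summed to 109.4 TPM in replicate 2 and 105 to 114 TPM elsewhere, and myeloid markers to 11.2 TPM in replicate 2 and 11.7 to 13.0 TPM elsewhere. CD8 T cell markers summed to 31.6 TPM in replicate 2 and 41.7 to 48.0 TPM elsewhere, natural killer cell markers to 2.59 TPM and 2.44 to 3.79 TPM, and epithelial and stromal markers to 23.0 TPM and 19.0 to 21.2 TPM. In replicate 2 the CD8 gene Cd8b1 and the macrophage gene Adgre1 were lower and the endothelial gene Pecam1 higher by edgeR, and DESeq2 called Cd8b1 alone of these lists.

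For each of the 5 called members, the protein-coding genes of at least 5 TPM with the most similar profile over the 4 libraries were found, by the root mean square (RMS) difference of centred log2(TPM + 0.1) values. For Kdm6b they were Got1, Trim66 and Cd109 (RMS difference 0.02 to 0.03), and 136 of 9512 genes lay within 0.1 of it. For Jarid2 they were Ccn1, Ing1 and Wars2, with 829 genes within 0.1. The nearest to Suz12 were Derl1, Sfpq and Sertad2, with 4483 genes within 0.1, to Rnf2 Park7, Msh6 and Phf11b, with 2162, and to Ezh1 Pus3, Mtif3 and Cst3, with 1378. These counts were smaller the larger the change of the gene in replicate 2, so that of Kdm6b restates the size of its fall. With 4 libraries, of which 1 stands apart, such likeness rests mainly on replicate 2.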

How the data were processed

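Fragments per gene were counted by the authors with featureCounts 1.4.6-p4, per the file headers, on paired reads with both ends mapped, in its reverse-stranded mode (strand option 2), against GENCODE M13. What they deposited are these raw counts, in a table for each library, with a summed exon length per gene. Coordinates are on mm10, the assembly named in the labels; no source used here gives an aligner version. The labels name total RNA, while the title of the linked library protocol names poly(A)+ RNA. Symbols came from GENCODE vM21 (50376 of 50600 identifiers matched), and promoter sequences from RefSeq.

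TPM was computed from count and length. Genes with at least 10 summed counts were tested with edgeR 4.0.16 (quasi-likelihood, TMM, robust prior), with limma 3.58.1 and DESeq2 1.42.0 as alternatives, and p-values were adjusted by Benjamini-Hochberg over all 17337 genes (threshold 0.05). Level tests took length and library scale as offset, and the test of spread compared each quasi-dispersion with its trend. SEs are the absolute log2 value over the square root of F. The steps were tested on simulated data. Within-library differences used exact two-sided sign-flip tests. No pair of libraries agreed within counting noise (chi-square of 4.44 to 49.4 per degree of freedom), which separate preparations of 1 sample could also exceed; each was counted as 1 sample because the labels list 4 biosamples. A count of 3, taken as the floor, stands for 0.0795 to 0.0906 CPM, which covers counting error only.

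Members, lists and tests were chosen with earlier results of these data known. From each list the text names the 3 genes of highest mean TPM and the called genes with the largest rise and fall; for the Th17 and other cell type markers it gives sums and counts. Some genes that this rule picks are not reported here. Alternatives were other size factors, tools, filters on counts, pseudocounts and lengths, and leaving out each library. No member shares exon bases with another gene on its own strand.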

Additional observations from a re-analysis of the deposited data

How the results depend on the processing

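The 5 calls among the 9 genes in replicate 2 kept their direction and passed under DESeq2 size factors, DESeq2, no filter, a filter of 100 summed counts, and without replicate 1, 3 or 4; the adjusted p of Suz12, the weakest, ran from 0.0131 to 0.0446 over these. The 9 genes also stayed above 1 TPM under every alternative run for the level, limma included. Counts over all genes were less stable. For replicate 1, 0 genes were called, 2 by DESeq2 and 0 to 68 when a library was left out. For replicate 3, 0 were called, 15 by DESeq2, 17 with no filter and 0 to 108 when a library was left out. For replicate 4, 0 were called, 3 by DESeq2 and 0 to 9 when a library was left out. The highest of each range came without replicate 2, and no member was called in any of these. The spread test called 6 genes, 0 with a prior that is not robust, 467 with no filter (1 member), 0 with a filter of 100 summed counts, and 0 to 79 when a library was left out, 79 without replicate 2; the cause was not tested. Mean within-library differences kept their sign, but with the longest transcript as length Suz12 minus Eed was 0.01 (exact p = 0.75) and turned negative in replicate 2, an alternative chosen after seeing the data, as were the DESeq2 calls and the levels without replicate 2 for the lists. DESeq2 called 1 PCGF gene in place of 2, 4 canonical PRC1 and 4 cell cycle genes in place of 5 each, 2 MLL3 and MLL4 genes in place of 3, 6 Th17 markers in place of 5, and 0 myeloid and 0 epithelial or stromal markers in place of 1 each; with no filter 5 menin partners were called in place of 6. No paired analysis was possible because there is 1 group, so that replicate numbers pair no samples. With 4 libraries the exact tests cannot go below 2 of 16 sign assignments, and without a library they cannot go below 0.25.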

Other observations

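Pagr1a, a subunit gene of the MLL3 and MLL4 complexes, was listed with 0 counts in all 4 libraries. In the deposited annotation 98.7% of its exon bases are shared with Pagr1b and Gm42742 on the same strand, so that its count gives no level. Hoxd3 and Hoxd4 share 62.3% and 52.3% of their exon bases with other genes on their strand, and their counts are likewise uncertain.

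The order of the 9 genes per length moves with the length used. With the longest basic transcript as length, Ezh2 at 128 ± 5.38 TPM came before Men1 at 78.2 ± 4.97 TPM, and Jarid2 (32.0 ± 4.89 TPM) came before Kdm6b (21.4 ± 4.95 TPM) (SD, n = 4). Suz12 at 149 ± 10.7 and Eed at 147 ± 2.45 TPM then lay within their spread of each other.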
